A study of Mus musculus with 11 samples.

Results

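The genes described here encode the precursors of 10 neuropeptides of the spinal cord: Tac1, Tac2, Penk, Pdyn, Sst, Cck, Grp, Nts, Npff and Npy. They were chosen by name from the 20888 rows of the deposited expression table, and all 10 were among the 14347 genes that passed the filter on low values and were tested. RNA came from lumbar cord segments of C57BL/6 mice, all aged 10 months. Of the 11 libraries, 5 came from mice that carry MFN2-R94Q together with MFN1 (MFN2-R94Q:MFN1), 3 from mice with MFN2-R94Q alone, and 3 from nontransgenic mice (nTg). MFN2-R94Q is a mutant mitofusin of the kind that causes a hereditary neuropathy of axons, Charcot-Marie-Tooth disease type 2A, and MFN1 is the other mitofusin that fuses the outer membranes of mitochondria. The MFN2-R94Q:MFN1 mice carry the mutant as well, so their comparison with MFN2-R94Q mice asks what the added MFN1 does on that background. The promoter that drives each transgene and the number of founder lines were not named in the sources used here. The labels name no sex, batch or pairing. Each library stands for 1 mouse, as the design text counts them.

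Neuropeptides are cut from larger precursor proteins inside dense core vesicles and act on G protein-coupled receptors more slowly than the fast transmitters released by the same neurons. In the dorsal horn of the spinal cord they mark distinct sets of excitatory and inhibitory interneurons that handle pain, itch and touch. Enkephalin and dynorphin, cut from the products of Penk and Pdyn, act on opioid receptors, and the tachykinins substance P and neurokinin B come from Tac1 and Tac2. Somatostatin (Sst), cholecystokinin (Cck), gastrin-releasing peptide (Grp) and neurotensin (Nts) are made largely by excitatory dorsal horn neurons, neuropeptide Y (Npy) by inhibitory ones, and neuropeptide FF (Npff) modulates opioid action.

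Levels are given in RPKM as deposited, that is reads per kilobase of gene and per unit of library depth. Sequencing depth, read off the step between low values of short genes, was 30.7 to 71.9 M reads per library. No difference in the rows Mfn1 and Mfn2 passed the test described below, though the 3 MFN2-R94Q libraries had the highest Mfn1 values (1.06-fold nTg, limma adjusted p = 0.13). Mfn1 was at 24.2 to 25.6 RPKM in MFN2-R94Q:MFN1, 25.8 to 26.6 RPKM in MFN2-R94Q and 24.2 to 25.5 RPKM in nTg libraries, and Mfn2 lay between 43.3 and 47.7 RPKM in all of them. The sources used here do not name the species of the transgene sequences, so these rows do not check the labels. The 3 MFN2-R94Q libraries varied more than the others: over the tested genes, a library differed from its group's remaining libraries by a median of 0.091, 0.107 and 0.062 on the log2 scale in replicates 1 to 3, and by 0.059 or less in each of the other 8 libraries.

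All 10 precursors were detected in every library, from 2.56 RPKM for Npff to 122.9 RPKM for Penk. In nTg cords Penk averaged 109.8 ± 5.19 RPKM and Sst 99.2 ± 3.75 RPKM (SD, n = 3 each), and together with Tac2 at 33.9 ± 0.409 RPKM they led the group. Penk alone made up 33.9% of the summed RPKM of the 10 genes and Sst 30.7%. Cck followed at 21.2 ± 1.29 RPKM, then Npy at 15.6 ± 1.41, Tac1 at 15.0 ± 1.59, Nts at 10.6 ± 0.006, Grp at 8.54 ± 0.762, Pdyn at 6.59 ± 0.428 and Npff at 2.98 ± 0.336 RPKM. Penk was higher than 97.0% of the tested genes and Npff higher than 27.1%. In nTg cords the libraries of neighbours in this order were apart except those of Npy and Tac1. The order was the same in MFN2-R94Q:MFN1 cords, where Penk and Sst overlapped as well as Npy and Tac1. In MFN2-R94Q cords Pdyn averaged above Grp, with overlapping libraries, and Cck and Npy overlapped.

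**Figure D1:**
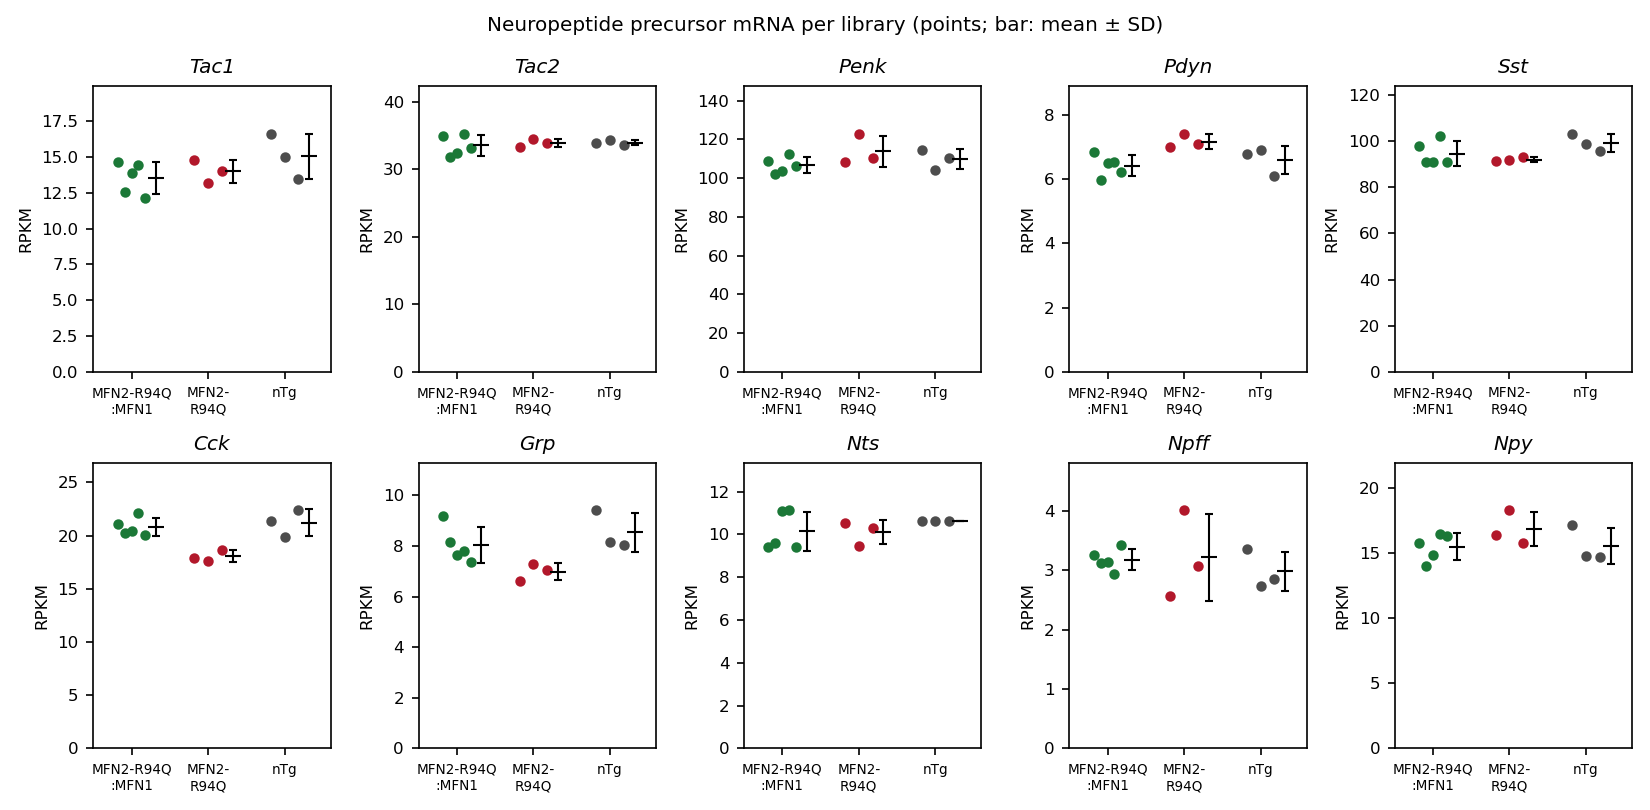
RPKM of the 10 neuropeptide precursor genes in each library, 1 panel per gene, with genotypes along the x axis, points for single libraries and bars for the mean ± SD of each group. The 3 MFN2-R94Q points of Cck (17.6 to 18.7 RPKM) and Grp (6.61 to 7.28 RPKM) lie below all points of the other genotypes, while the points of Tac2, Penk, Npff and Npy overlap.

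Regulatory sequence upstream of the start site was available from RefSeq (GRCm38.p6) for 7 of the 10 genes, as windows of 250 bases before to 50 bases after the start. These 7 genes gave 8 windows, because Pdyn has a pair of start sites. The cAMP response element TGACGTCA, the site through which CREB acts on neuropeptide genes, and its core TGACG were searched on both strands, along with the AP-1 site TGANTCA and the TATA box letters TATAAA. The promoter of Cck, the member whose level differed in both comparisons that involve MFN2-R94Q mice, is shown with those of Sst and Tac1, which hold the core at almost the same distance from the start. Capitals mark the matches, which read CGTCA where the core lies on the other strand.
Cck promoter, chr9:121495645-121495944, minus strand: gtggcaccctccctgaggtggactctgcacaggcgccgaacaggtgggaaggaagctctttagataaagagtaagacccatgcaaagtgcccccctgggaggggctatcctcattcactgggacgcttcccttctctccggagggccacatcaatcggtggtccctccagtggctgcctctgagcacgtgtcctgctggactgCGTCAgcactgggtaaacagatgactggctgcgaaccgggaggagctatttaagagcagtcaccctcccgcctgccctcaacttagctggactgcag
Sst promoter, chr16:23890795-23891094, minus strand: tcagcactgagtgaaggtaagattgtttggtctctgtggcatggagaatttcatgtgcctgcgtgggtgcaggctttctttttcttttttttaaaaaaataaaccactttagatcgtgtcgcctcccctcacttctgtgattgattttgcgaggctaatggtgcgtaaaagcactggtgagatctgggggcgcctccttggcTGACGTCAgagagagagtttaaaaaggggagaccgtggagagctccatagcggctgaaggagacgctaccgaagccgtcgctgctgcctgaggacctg
Tac1 promoter, chr6:7554811-7555110, plus strand: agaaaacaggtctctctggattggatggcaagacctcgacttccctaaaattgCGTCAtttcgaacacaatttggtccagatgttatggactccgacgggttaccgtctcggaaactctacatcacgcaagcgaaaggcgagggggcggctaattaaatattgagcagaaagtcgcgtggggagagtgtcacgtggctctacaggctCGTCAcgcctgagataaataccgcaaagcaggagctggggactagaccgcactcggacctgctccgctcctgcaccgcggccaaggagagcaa

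The first base of the core lay at -47 in Cck, at -43 and -197 in Tac1, and at -48 and -45 in Sst, where the matches on the 2 strands overlap within the full element TGACGTCA at -48. Nts held the core at -166 and an AP-1 site at -207. No match to any of the 4 searched motifs was found in the windows of Pdyn, Npy or Tac2, and TATAAA was in none of the 8. Across 32851 RefSeq mouse promoters of the same length, 1.79% held the full element, 20.8% the core, 7.81% the AP-1 site and 13.6% TATAAA. The core began between -60 and -40 in 2.89% of them, a window chosen after the matches had been seen. These matches describe the letters in the windows and no binding was measured.

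MFN2-R94Q cords had less Cck and Grp RNA than nTg cords, and the other 8 precursors did not pass the test. Cck was 0.855-fold and Grp 0.829-fold the nTg level. The 3 genotypes were fitted together with limma on log2(RPKM + 0.5), and the threshold was a Benjamini-Hochberg adjusted p of 0.05 over all tested genes. Of the 10 members 0 were higher and 2 lower by limma (3 had an unadjusted p under 0.05), where 17.9% of all tested genes passed, 7.5% higher and 10.4% lower. The share of members that passed is therefore close to that of all genes. The median log2 fold change of the members was -0.04, and that of all tested genes -0.00. In bulk tissue, fewer cells of a type and less RNA per cell cannot be told apart.

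Cck encodes cholecystokinin, which in the dorsal horn is made by excitatory interneurons of the deep laminae. It was at 17.9, 17.6 and 18.7 RPKM in the MFN2-R94Q libraries, against 21.4, 19.8 and 22.4 RPKM in the nTg libraries. Every MFN2-R94Q value lay below every nTg value. The log2 fold change was -0.23 (SE 0.050, 95% confidence interval -0.33 to -0.12, limma adjusted p = 0.010), and it passed under each of the 20 alternative settings. Without MFN2-R94Q replicate 2, the library farthest from its group, it was -0.21 (adjusted p = 0.027). The highest limma adjusted p over the 20 settings was 0.048. The gene (chr9:121489824-121495694) overlaps the long noncoding RNA gene Gm38661 in the annotation, and the sources used here do not say whether counting used the strand, so reads of the 2 genes cannot be told apart.

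Grp encodes gastrin-releasing peptide, which relays itch in the superficial dorsal horn. It was at 6.61, 7.28 and 7.04 RPKM in the MFN2-R94Q libraries, against 9.42, 8.14 and 8.06 RPKM in the nTg libraries. Again all MFN2-R94Q values were the lower ones. The log2 fold change was -0.27 (SE 0.077, 95% confidence interval -0.44 to -0.10, limma adjusted p = 0.030). This call was less firm than that of Cck. It was lost without nTg replicate 1 (-0.20, limma adjusted p = 0.11), without nTg replicate 2 (-0.30, adjusted p = 0.054), without MFN2-R94Q replicate 1 (-0.24, adjusted p = 0.071) and without MFN2-R94Q replicate 3 (-0.28, adjusted p = 0.051). Grp (chromosome 18, 65872751 to 65886599) overlaps the long noncoding RNA gene Gm30094.

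**Figure D2:**
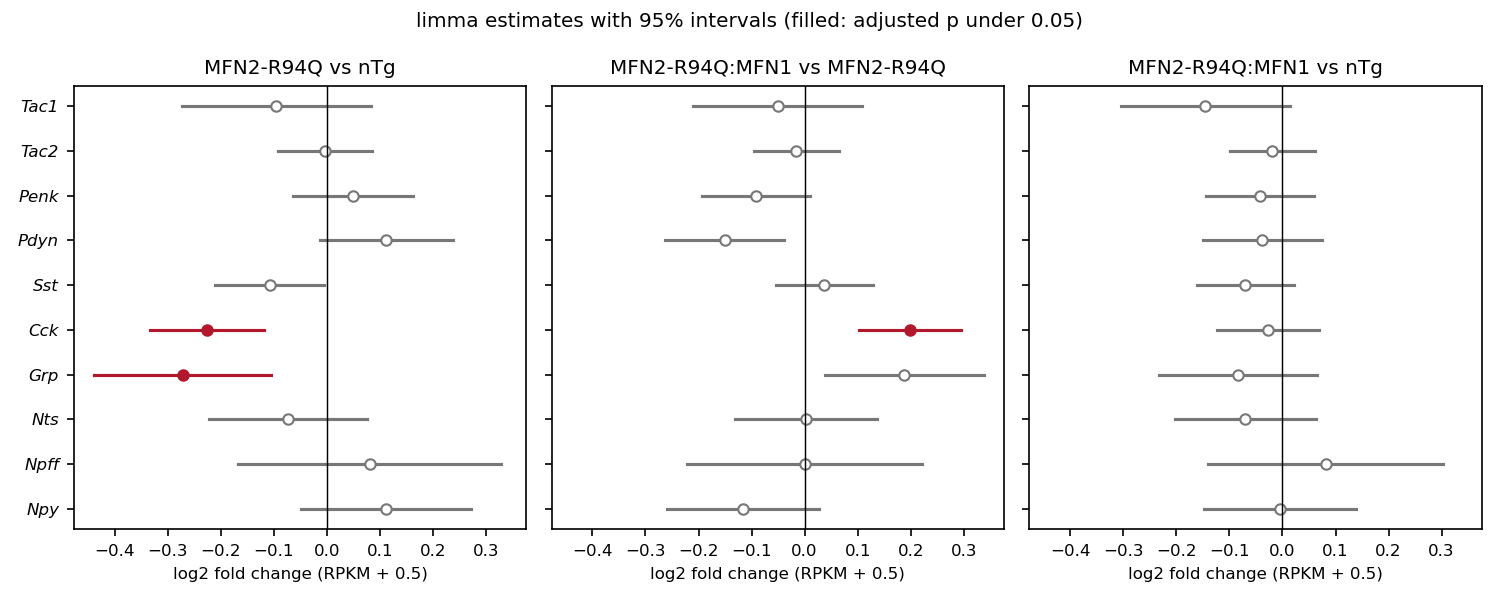
Log2 fold change of the 10 precursor genes in the 3 comparisons, with 95% confidence intervals from limma and filled points where the adjusted p is under 0.05. Cck is at -0.23 and Grp at -0.27 in MFN2-R94Q against nTg, and only Cck passes in MFN2-R94Q:MFN1 against MFN2-R94Q, at 0.20.

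Somatostatin RNA was lower in every MFN2-R94Q library without passing the threshold. Sst was at 91.3, 91.6 and 93.1 RPKM in MFN2-R94Q, against 103.2, 98.6 and 95.8 RPKM in nTg. The log2 fold change was -0.11 (95% confidence interval -0.21 to -0.00, limma adjusted p = 0.13). The gap between the lowest nTg and the highest MFN2-R94Q library was small beside the spread of the nTg libraries.

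Nts, the neurotensin precursor, was at 10.5, 9.46 and 10.3 RPKM in MFN2-R94Q, against 10.63, 10.64 and 10.63 RPKM in nTg. The groups did not overlap, but the difference was small (log2 fold change -0.07, limma adjusted p = 0.49). The 3 nTg values were closer to each other than counting alone would give: their coefficient of variation was 0.054%, where the reads behind Nts allow 3.40% to 4.98% over all 11 libraries. That closeness is therefore no measure of the spread between animals.

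The opioid precursors did not pass in MFN2-R94Q cords. Pdyn was at 6.98, 7.41 and 7.09 RPKM in MFN2-R94Q, against 6.77, 6.90 and 6.10 RPKM in nTg, and was the only member whose MFN2-R94Q libraries were all higher (log2 fold change 0.11, limma adjusted p = 0.19). Penk was at 108.1, 122.9 and 110.1 RPKM in MFN2-R94Q, against 114.6, 104.3 and 110.5 RPKM in nTg. Its log2 fold change of 0.05 (adjusted p = 0.54) rested on MFN2-R94Q replicate 2 and was -0.01 without it.

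In all, 1 member was apart on the higher side and 4 on the lower side, where 35.7% of all tested genes were apart, 16.6% higher and 19.1% lower. Tac1, Tac2, Npff and Npy overlapped between MFN2-R94Q and nTg. Tac2, the neurokinin B precursor, was the steadiest of the 10, at 33.3, 34.4 and 33.9 RPKM in MFN2-R94Q, against 33.8, 34.4 and 33.6 RPKM in nTg. Its 95% confidence interval reached 0.089 to either side of a log2 fold change of -0.00 (limma adjusted p = 0.97). Tac1, the substance P precursor, averaged 14.0 ± 0.802 RPKM in MFN2-R94Q and 15.0 ± 1.59 RPKM in nTg cords (SD, n = 3 each; limma adjusted p = 0.44). Npy averaged 16.8 ± 1.30 RPKM in MFN2-R94Q and 15.6 ± 1.41 RPKM in nTg cords (SD, n = 3 each; limma adjusted p = 0.31).

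Npff had the fewest reads and the widest spread. It was at 2.56, 4.01 and 3.08 RPKM in MFN2-R94Q, against 3.36, 2.73 and 2.85 RPKM in nTg. Over all 11 libraries, Npff stood for about 35 to 100 reads per library. The log2 fold change was 0.08 (95% confidence interval -0.17 to 0.33, limma adjusted p = 0.65), the widest interval of the 10. The coefficient of variation was 22.9% between the MFN2-R94Q libraries, above the 10.0% to 16.9% that counting alone gives for the reads of all 11 libraries.

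Cords with added MFN1 had more Cck RNA than MFN2-R94Q cords, and no other precursor passed. Cck was at 21.1, 20.3, 20.4, 22.1 and 20.1 RPKM in MFN2-R94Q:MFN1, against 17.9, 17.6 and 18.7 RPKM in MFN2-R94Q. All 5 MFN2-R94Q:MFN1 libraries lay above all 3 MFN2-R94Q libraries. The log2 fold change was 0.20 (SE 0.044, 95% confidence interval 0.10 to 0.29, 1.15-fold, limma adjusted p = 0.014), and it passed under each of the 20 alternative settings, with 0.18 (adjusted p = 0.047) without MFN2-R94Q replicate 2. Of the 10 members 1 was higher and 0 lower by limma (3 had an unadjusted p under 0.05), where 12.9% of all tested genes passed, 9.55% higher and 3.33% lower. This comparison uses the same 3 MFN2-R94Q libraries as the one with nTg, so any deviation of those libraries enters both with opposite signs.

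Grp and Pdyn were apart between these genotypes without passing. Grp was at 9.20, 8.14, 7.66, 7.81 and 7.36 RPKM in MFN2-R94Q:MFN1, against 6.61, 7.28 and 7.04 RPKM in MFN2-R94Q (log2 fold change 0.19, 95% confidence interval 0.04 to 0.34, limma adjusted p = 0.090). Pdyn was at 6.84, 5.96, 6.49, 6.51 and 6.23 RPKM in MFN2-R94Q:MFN1, against 6.98, 7.41 and 7.09 RPKM in MFN2-R94Q (log2 fold change -0.15, 95% confidence interval -0.26 to -0.04, limma adjusted p = 0.074). With Cck and Grp, 2 members were apart on the higher side, and Pdyn alone on the lower side, where 20.1% of all tested genes were apart, 13.1% higher and 7.05% lower. The log2 fold changes of the other 7 members lay between -0.12 for Npy and 0.04 for Sst, and the median of all 10 was -0.01.

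Against nTg cords, no precursor passed in MFN2-R94Q:MFN1 cords. By limma 0 of the 10 members were called and 0 had an unadjusted p under 0.05, where 2.31% of all tested genes were called, 2.09% higher and 0.223% lower. None of the 10 was apart between these genotypes, where 14.1% of all tested genes were, 9.03% higher and 5.05% lower. The smallest p was that of Tac1, at 14.7, 12.6, 13.9, 14.5 and 12.1 RPKM in MFN2-R94Q:MFN1, against 16.6, 15.0 and 13.5 RPKM in nTg (log2 fold change -0.15, 95% confidence interval -0.30 to 0.01). Cck averaged 20.8 ± 0.843 RPKM in MFN2-R94Q:MFN1 (n = 5) and 21.2 ± 1.29 RPKM in nTg cords (n = 3), and Grp 8.03 ± 0.710 and 8.54 ± 0.762 RPKM (SD). The log2 fold changes of 9 of the 10 members were negative, with a median of -0.04, which is small beside the intervals of the single genes. Over all tested genes 6578 of 14347 were negative, with a median of 0.01.

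**Figure D3:**
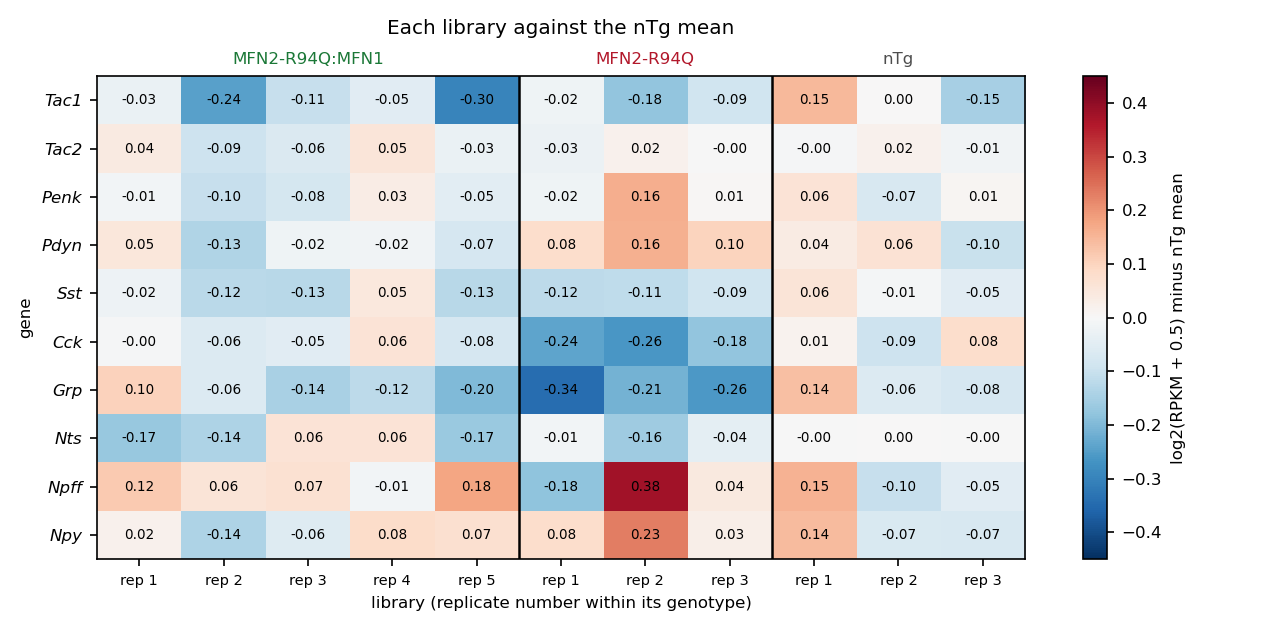
Difference of each library from the nTg mean, on the log2(RPKM + 0.5) scale, for the 10 precursor genes (rows) in the 11 libraries (columns, by genotype). Cck and Grp are negative in all 3 MFN2-R94Q libraries, as are Sst, Tac1 and Nts, and MFN2-R94Q replicate 2 is high for Penk, Pdyn, Npff and Npy.

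The members did not move as a block. MFN2-R94Q replicate 2 had the highest value of all 11 libraries for Penk, Pdyn, Npff and Npy and the lowest for Cck. MFN2-R94Q:MFN1 replicate 2 was lowest for Tac2, Penk, Pdyn and Npy, and nTg replicate 1 was highest for Tac1, Sst and Grp. The summed RPKM of the 10 genes was 298.6 to 331.3 in MFN2-R94Q:MFN1, 308.5 to 326.2 in MFN2-R94Q and 315.3 to 337.1 in nTg libraries. Spread within genotypes differed between members: the within-group SD of the log2 values was 0.048 for Tac2 and 0.164 for Npff, where the median of all tested genes was 0.076. That of Npff was larger than in 91.8% of tested genes.

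For each member the tested genes with the most similar profile over the 11 libraries were sought by Pearson correlation of log2(RPKM + 0.5), among genes averaging at least 1 RPKM. Cck was most like Supt20 (r = 0.95), then Tapbpl and Foxj1 (0.93 each). Grp was most like Hmox2 (0.88), Penk like Dlg5 (0.93), Tac1 like Tpbg (0.95), Npy like Ralgds (0.94) and Pdyn like Usp54 (0.92). Tac2 was most like Chgb (0.88), which encodes a granin of dense core vesicles. The points share genotype and library, and each gene is the best of many, so these values are descriptions.

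The receptors of these peptides were mostly much less abundant than the precursors. Of 23 receptor genes, 17 were tested. In nTg cords Ntsr2 stood at 76.9 ± 3.93 RPKM and Sort1 at 59.3 ± 0.480 RPKM (SD, n = 3 each); both bind neurotensin, Sort1 being a sorting receptor with many other ligands. The next were the cholecystokinin receptor Cckbr at 5.57 RPKM, the substance P receptor Tacr1 at 4.33 RPKM and the neurokinin B receptor Tacr3 at 4.03 RPKM. Grpr, the receptor of gastrin-releasing peptide, averaged 0.636 RPKM, and the receptors of neuropeptide FF, Npffr1 and Npffr2, averaged 0.250 and 0.404 RPKM and were not tested.

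**Figure D4:**
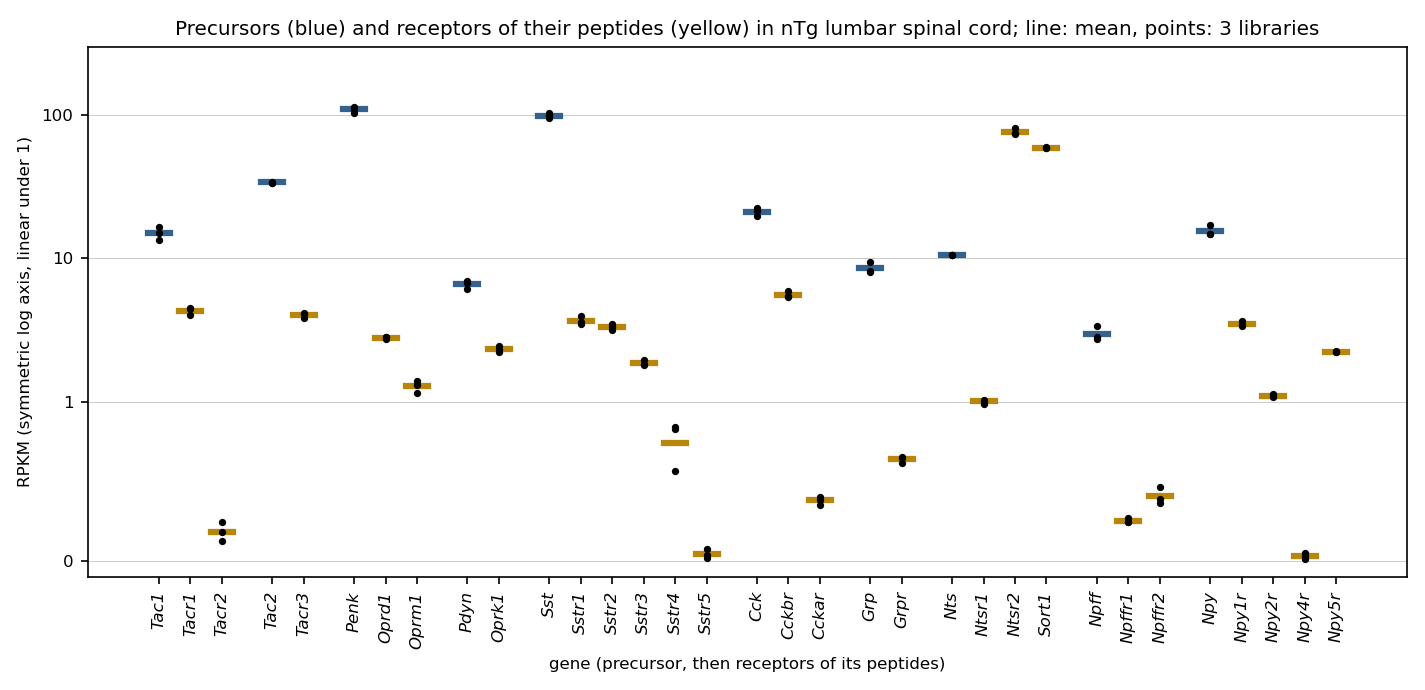
RPKM of each precursor gene (blue) and the receptor genes of its peptides (yellow) in the 3 nTg libraries, on a symmetric log axis that is linear under 1 RPKM, with points for libraries and a line for the mean. Apart from Ntsr2 (76.9 RPKM) and Sort1 (59.3 RPKM), every receptor shown averages 5.57 RPKM or less.

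Sort1 was the receptor that differed in both comparisons with MFN2-R94Q cords. It was at 54.5, 48.5 and 53.7 RPKM in MFN2-R94Q, against 59.5, 59.7 and 58.7 RPKM in nTg, and the groups did not overlap (0.881-fold, limma adjusted p = 0.010). In MFN2-R94Q:MFN1 it was at 57.9, 59.3, 57.1, 58.3 and 57.8 RPKM, again above all MFN2-R94Q libraries (1.11-fold, limma adjusted p = 0.018). Both Sort1 calls held with each library left out in turn, but that against nTg was lost with only the 2 genotypes in the fit (adjusted p = 0.061) and that against MFN2-R94Q with quantile normalization (adjusted p = 0.052). Oprk1, the receptor of dynorphin, was higher in MFN2-R94Q, at 2.77 ± 0.226 RPKM, than in nTg, at 2.32 ± 0.113 RPKM (SD, n = 3 each; 1.16-fold, limma adjusted p = 0.035). The Oprk1 call was lost without nTg replicate 2 (log2 0.18, adjusted p = 0.12), nTg replicate 3 (0.21, adjusted p = 0.076), MFN2-R94Q replicate 1 (0.19, adjusted p = 0.074) or MFN2-R94Q replicate 2 (0.17, adjusted p = 0.11). It was also lost with quantile normalization (limma adjusted p = 0.053), with library weights (0.13) and with only the 2 genotypes in the fit (0.13). Of the 17 receptors 1 was higher and 1 lower in MFN2-R94Q against nTg. Their median log2 fold change was -0.10, and 13 of 17 were negative, where 7278 of 14347 tested genes were. In MFN2-R94Q:MFN1 against MFN2-R94Q 1 was higher and 0 lower (median 0.01), and against nTg limma called 0, with 2 at an unadjusted p under 0.05 (median -0.05).

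The machinery that cuts and packs precursors was abundant. All 22 genes of the list of processing enzymes and dense core vesicle proteins were tested. In MFN2-R94Q against nTg 2 were higher and 3 lower (median 0.02; 2 in all without nTg replicate 2), in MFN2-R94Q:MFN1 against MFN2-R94Q 1 was higher and 1 lower (median -0.04; 0 without MFN2-R94Q replicate 2), and in MFN2-R94Q:MFN1 against nTg 2 were higher and 0 lower (median -0.03). In this order 22.7%, 9.09% and 9.09% of the list passed, where 17.9%, 12.9% and 2.31% of all tested genes did. The 3 lower in MFN2-R94Q against nTg were Chga, Vgf and Cpd. They passed in 9, 7 and 8 of 11 fits with a library left out. Carboxypeptidase E (Cpe), which trims the cut peptides, averaged 444 RPKM in MFN2-R94Q and 415 RPKM in nTg and did not pass. Ctsl, a lysosomal protease that also cuts precursors such as proenkephalin, averaged 24.7 ± 1.79 RPKM in MFN2-R94Q and 21.0 ± 0.309 RPKM in nTg (SD, n = 3 each; 1.17-fold, limma adjusted p = 0.010). The secretogranin Scg3 averaged 114 ± 4.40 RPKM in MFN2-R94Q:MFN1 (n = 5) and 98.6 ± 1.31 RPKM in nTg (SD, n = 3; 1.15-fold, limma adjusted p = 0.0067). Both of these calls held with each library left out in turn, but that of Ctsl was lost with only the 2 genotypes in the fit.

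Among other neuropeptide precursors, 24 of 46 listed genes were tested. In MFN2-R94Q against nTg 1 was higher and 2 lower (median -0.07), in MFN2-R94Q:MFN1 against MFN2-R94Q 3 were higher and 2 lower (median 0.03), and in MFN2-R94Q:MFN1 against nTg 2 were higher and 0 lower (median -0.03). Calca, which encodes calcitonin gene-related peptide, a peptide that the cord's motor neurons also make, was at 19.0, 20.2 and 16.8 RPKM in MFN2-R94Q, against 14.7, 12.5 and 14.6 RPKM in nTg (1.33-fold, limma adjusted p = 0.0066). Its MFN2-R94Q libraries all lay above the nTg libraries. In MFN2-R94Q:MFN1 Calca was at 17.1, 19.9, 17.5, 18.3 and 20.05 RPKM, also above all nTg libraries (1.32-fold, limma adjusted p = 0.0092), but this call was lost without nTg replicate 2 (highest adjusted p = 0.061). Calcb, the other gene of calcitonin gene-related peptide, went the opposite way, at 5.43 ± 0.813 RPKM in MFN2-R94Q and 7.32 ± 0.653 RPKM in nTg (SD, n = 3 each; 0.755-fold, limma adjusted p = 0.017). The Calcb call was lost without nTg replicate 1 (log2 -0.35, adjusted p = 0.063), nTg replicate 2 (-0.40, adjusted p = 0.057) or MFN2-R94Q replicate 2 (-0.33, adjusted p = 0.056). It was also lost with only the 2 genotypes in the fit (limma adjusted p = 0.054).

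The other listed precursors that passed were Apln, Uts2, Nms, Crh and Uts2b. Apln, the precursor of apelin, was at 15.4, 12.3 and 15.0 RPKM in MFN2-R94Q, against 22.0, 19.8 and 21.4 RPKM in nTg (0.681-fold, limma adjusted p = 0.0023). In MFN2-R94Q:MFN1 Apln was at 16.6, 19.0, 18.3, 18.4 and 19.1 RPKM, above all MFN2-R94Q libraries (1.28-fold, limma adjusted p = 0.0073). Uts2, the precursor of urotensin 2, known from motor neurons, was at 17.4, 25.4, 20.5, 24.8 and 29.3 RPKM in MFN2-R94Q:MFN1, against 15.8, 16.6 and 13.2 RPKM in MFN2-R94Q (1.51-fold, limma adjusted p = 0.012). All 5 were above the MFN2-R94Q libraries, and they ranged more widely than either other group. Uts2 was also higher in MFN2-R94Q:MFN1 than in nTg (1.51-fold, limma adjusted p = 0.030), a call that passed in 6 of the 11 fits with a library left out and was lost without any of the nTg libraries or without MFN2-R94Q:MFN1 replicate 2 or 4. Nms, the precursor of neuromedin S, averaged 1.02 RPKM in MFN2-R94Q:MFN1 and 1.67 RPKM in MFN2-R94Q (0.700-fold, limma adjusted p = 0.0073). Crh, the precursor of corticotropin-releasing hormone, was 0.776-fold in the same comparison (limma adjusted p = 0.019; 0.076 without MFN2-R94Q replicate 2), and Uts2b, a relative of Uts2, 1.27-fold (limma adjusted p = 0.044), a call that passed in 4 of the 11 fits with a library left out.

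Markers of the neurons that make the peptides did not move in a single direction. Of 12 markers of excitatory dorsal horn neurons 4 were higher and 1 lower in MFN2-R94Q against nTg (median -0.02), among the higher ones Reln at 10.5 RPKM in MFN2-R94Q and 8.71 RPKM in nTg (1.19-fold, limma adjusted p = 0.0036). Calb2 was the lower one, at 135.6 RPKM in MFN2-R94Q and 148.3 RPKM in nTg, and passed in 7 of 11 fits with a library left out. The summed RPKM of the 12 excitatory markers was 227.8 to 238.4 in MFN2-R94Q and 241.2 to 251.1 in nTg libraries. Of 12 markers of inhibitory neurons 1 was higher and 1 lower (median 0.05), with sums of 411.7 to 477.1 and 408.8 to 411.3 RPKM. Of 10 pan-neuronal markers 1 was higher and 2 lower (median -0.06), with sums of 2022 to 2130 in MFN2-R94Q and 2149 to 2205 RPKM in nTg. The shares that passed were 41.7% of excitatory, 16.7% of inhibitory and 30.0% of pan-neuronal markers. Of all tested genes 17.9% passed, 7.5% higher and 10.4% lower. In MFN2-R94Q:MFN1 against MFN2-R94Q, 0 excitatory markers were higher and 2 lower (0 without MFN2-R94Q replicate 2), and 0 inhibitory markers were higher and 2 lower. That was 16.7% of either list, where 12.9% of all tested genes passed, 9.55% higher and 3.33% lower. Without nTg replicate 2 the markers called in MFN2-R94Q against nTg were 2 excitatory, 0 inhibitory and 1 pan-neuronal, and without nTg replicate 3 they were 3 excitatory and 0 inhibitory.

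Most motor neuron markers were lower in MFN2-R94Q than in nTg cords. Of 8 markers 0 were higher and 6 lower in MFN2-R94Q against nTg (median -0.22), led by Prph (0.852-fold, limma adjusted p = 0.0033), Mmp9 (0.850-fold, adjusted p = 0.0071) and Chodl (0.664-fold, adjusted p = 0.0083). The count was 3 without nTg replicate 2 and 3 without nTg replicate 3, while these 3 genes passed with each library left out in turn. Of the same 8 markers 1, Prph, was higher and 0 lower in MFN2-R94Q:MFN1 against MFN2-R94Q (median 0.08). In MFN2-R94Q:MFN1 against nTg 0 were higher and 1, Mmp9, lower (median -0.15). There 7 of the 8 were negative, where 6578 of 14347 tested genes were. The summed RPKM of the 8 markers was 101.0 to 109.2 in MFN2-R94Q:MFN1, 88.7 to 100.6 in MFN2-R94Q and 110.5 to 113.3 in nTg libraries. Of the oligodendrocyte markers, 8 in all, 1 was higher and 4 lower in MFN2-R94Q against nTg, and 5 were higher in MFN2-R94Q:MFN1 against MFN2-R94Q. Without nTg replicate 1, 1 of these markers was called in MFN2-R94Q against nTg. Of 8 astrocyte markers 1 was higher and 2 lower in MFN2-R94Q against nTg and 4 higher in MFN2-R94Q:MFN1 against MFN2-R94Q, and of 8 endothelial and mural markers 3 were lower and 3 higher in these comparisons. None of the endothelial and mural calls against nTg was left without nTg replicate 2 or 3, and none of those against MFN2-R94Q without MFN2-R94Q replicate 2 or without MFN2-R94Q:MFN1 replicate 2, 3 or 5. Across all libraries left out in turn the counts were 0 to 3 in both comparisons. Of 8 microglia markers, all 8 were higher in MFN2-R94Q:MFN1 than in MFN2-R94Q, with sums of 205.3 to 233.8 and 142.9 to 156.2 RPKM. In nTg libraries the sums were 141.5 to 147.7 RPKM. Against nTg, 6 of the 8 were higher and 0 lower in MFN2-R94Q:MFN1, and 0 higher and 1 lower in MFN2-R94Q. The part of these shifts in the Cck and Grp values was not tested. Sensory ganglion RNA was close to absent: Scn10a and Mrgprd, which mark sensory neurons, reached at most 0.010 and 0.008 RPKM in any library, and 4 of the 10 listed sensory markers were tested, of which Prph, also a motor neuron marker, was called.

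**Figure D5:**
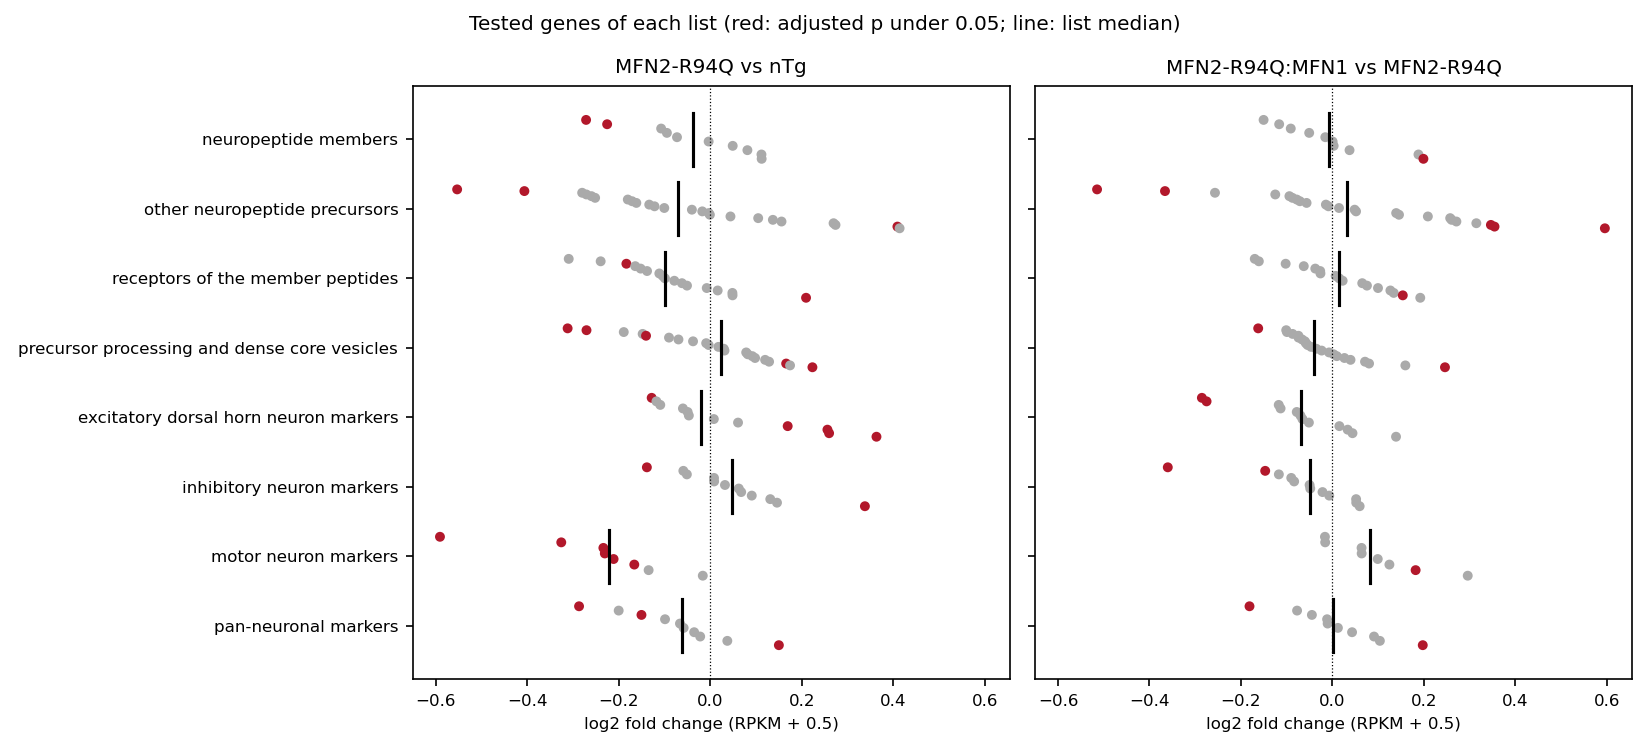
Log2 fold changes of the tested genes of 8 lists in the 2 comparisons that involve MFN2-R94Q, 1 row per list, with points for genes (red where the adjusted p is under 0.05) and a line for the median. The median of the motor neuron markers in MFN2-R94Q against nTg is -0.22, and that of the 10 neuropeptide precursors is -0.04.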

How the data were processed

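Poly(A) RNA of mouse lumbar spinal cord was sequenced from stranded TruSeq libraries, per the labels' protocols. The authors deposited RPKM values, made with TopHat and Partek 7.17.0918 on the mouse build mm10, per the submitters' processing notes. The sources used here do not give the TopHat version, the annotation, the use of strand in counting or the treatment of reads that match several genes. RPKM are not counts, so no count test was run. Depth was recovered from 289 short RNA genes under 160 bases: among values of up to 5 reads, between 94.7% and 98.6% in each library came within 0.02 of whole reads.

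A gene was tested where 3 or more libraries had 0.5 RPKM or more. The test was two-sided and used limma 3.58.1 (R 4.3.3, eBayes with a variance trend) on log2(RPKM + 0.5), with the 11 libraries in a common model of genotype and Benjamini-Hochberg adjustment over all 14347 tested genes. Fold changes are on that scale, so those of low genes are understated. The spread behind each p-value is shared over the 3 genotypes and is that between these samples. The step was tested on simulated data first. The 16 pairs of libraries within genotypes were distinct, with an SD of the log2 difference of 0.126 to 0.238.

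The 10 members and the 13 other lists were chosen with earlier results of these data known. All members are named, along with up to 4 genes with the smallest p per list and comparison, defining markers, receptors and processing enzymes by level, and the 3 genes most like each member in profile. Coordinates and promoters are from RefSeq on GRCm38.p6. Alternatives changed the pseudocount (0.1 or 1), the filter, the scaling, the library weights, the variance trend and the libraries in the fit. A gene that this rule took is not reported here.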

Additional observations from a re-analysis of the deposited data

How the results depend on the processing

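Cck passed in both comparisons with MFN2-R94Q under every alternative run. In MFN2-R94Q against nTg, 2 members were called, against 1 without a filter on low values, 1 with only the 2 genotypes compared, and 1 to 2 when each library was left out in turn. Grp was the member lost (log2 -0.27 with adjusted p = 0.066 without a filter and 0.058 with only the 2 genotypes). The counts of 1 in MFN2-R94Q:MFN1 against MFN2-R94Q and 0 in MFN2-R94Q:MFN1 against nTg held under every alternative run. The counts over all tested genes moved more. They were 846 for MFN2-R94Q against nTg and 566 for MFN2-R94Q:MFN1 against nTg with only the 2 genotypes compared, 592 for the second with library weights, and 1198 for MFN2-R94Q:MFN1 against MFN2-R94Q without a filter. With each library left out in turn they ranged from 1213 to 2857, 189 to 589 and 882 to 2217 in the same order of comparisons.

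Of 600 member results under alternatives, 571 kept direction and side of the threshold, 6 (all Grp in MFN2-R94Q against nTg) lost the call and 23 changed sign. None of the 23 passed, and the largest was 0.13 in size. In MFN2-R94Q:MFN1 against MFN2-R94Q, Npff was -0.0014 with a pseudocount of 1, -0.021 with quantile normalization and -0.017 with median centring. Nts was -0.0078 with quantile normalization, -0.015 with median centring and -0.042 with library weights. Tac2 in MFN2-R94Q against nTg was 0.029 with quantile normalization. Leaving out each library gave -0.015 to 0.0086 for Tac2, -0.0078 to 0.084 for Penk and -0.068 to 0.21 for Npff in MFN2-R94Q against nTg. In MFN2-R94Q:MFN1 against MFN2-R94Q it gave -0.034 to 0.0032 for Tac2, -0.13 to 0.15 for Npff and -0.042 to 0.032 for Nts. In MFN2-R94Q:MFN1 against nTg it gave -0.073 to 0.013 for Cck and -0.041 to 0.067 for Npy. The cause of these shifts was not tested. No paired analysis was possible because the labels give no replicate numbers that link the groups. Npff rests on the fewest reads, about 35 to 100 per library.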

Other observations

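Peptidases that degrade released neuropeptides were given a list of 12 genes, of which 10 were tested. In MFN2-R94Q against nTg 1 was higher and 2 lower: Nln, neurolysin, which cleaves neurotensin among other peptides, averaged 7.18 RPKM in MFN2-R94Q and 5.29 RPKM in nTg (1.31-fold, limma adjusted p = 0.014), Thop1 averaged 10.8 and 12.4 RPKM (0.880-fold, adjusted p = 0.023), and Npepps 31.6 and 37.7 RPKM (0.834-fold, adjusted p = 0.032). The calls of these genes were lost when some single libraries were left out: they passed in 10, 8 and 8 of 11 such fits. In MFN2-R94Q:MFN1 against MFN2-R94Q limma called 1 lower gene, Ace, at 6.45 and 7.58 RPKM (0.863-fold, adjusted p = 0.029, passing in 7 of 11 such fits).

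The ratio of Penk to Sst RPKM within a library, chosen after the values were seen, was 1.13 ± 0.028 in MFN2-R94Q:MFN1 (n = 5), 1.24 ± 0.091 in MFN2-R94Q (n = 3) and 1.11 ± 0.048 in nTg cords (SD, n = 3). The MFN2-R94Q libraries ranged from 1.18 to 1.34, above all others, and no test was made of it.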
